A study of Citrus sinensis and Citrus x aurantiifolia and Citrus x latifolia with 53 samples.

Results

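The 150 genes described here lost most of their transcripts in the roots of grafted citrus trees left without water, while the mean change of the same genes in leaves stayed near 0. They were taken from 24533 gene identifiers by their measured drought response. Levels are CPM, each count divided by the total of its library and scaled to 1e6. For each of the 4 combinations of scion and rootstock the response was the log2 ratio of mean CPM + 1 under water deficit to mean CPM + 1 under irrigation, and the 4 responses were averaged per tissue. A gene met the limits when it had under 400 CPM in irrigated leaves and roots, a mean root response of at most -1.5 and a mean leaf response between -0.5 and 0.5. These limits were met by 840 genes, and the 150 with the lowest root response were kept. The fall in roots and the small change in leaves are therefore what chose the genes, and both are given below as description, without a test.

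Roots take up water and mineral nutrients and sense drying soil first. Under drought the growth of fine roots slows, the hormone abscisic acid accumulates, and root cells change the expression of transporters, cell wall enzymes and the barriers that line the root's vascular tissue. Genes active in roots and nearly silent in leaves are common in plants, since the organs do different work. The files give no names for the identifiers, which are of the kind used for clementine (Citrus clementina) gene models, and 0 of 24533 matched the sweet orange annotation at hand. No function is therefore given for any of the genes, and their sequences were not used here.

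The question behind the design is how the ploidy of rootstock and scion bears on a lime tree's response to lack of water. Trees with water deficit (WD) went 9 days without irrigation and control trees (Ctrl) stayed irrigated. All had grown for 2 years in 40 L pots in a greenhouse. The scion was triploid Persian lime (PL, Citrus latifolia) or diploid Mexican lime (ML, Citrus aurantiifolia). The rootstock was Swingle citrumelo 4475, as a tetraploid (4x) or its diploid counterpart (2x). The combinations are written PL4x, PL2x, ML4x and ML2x. Roots carry the rootstock genotype and leaves the scion genotype, so the roots of all combinations are citrumelo. Root groups held 4 WD and 3 irrigated libraries per combination, with 3 WD libraries in PL2x. Leaf groups held the same numbers except PL2x, with 3 WD and 2 irrigated libraries. Each library of a group came from a separate tree, per the series' design text.

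The 27 root libraries held between 1118899 and 27925992 counts and the 26 leaf libraries between 3747153 and 54838385. The shallowest was root library ML2x WD 4, in which 38 of the 150 genes had a count and in which a count of 0 still allows a level of up to 2.68 CPM (3 counts, counting error only). In whole pieces of tissue, fewer cells of a type and less RNA per cell cannot be told apart. Markers of cell types could not be checked, because the identifiers have no names.

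The 150 genes were low in WD roots and moderately expressed in irrigated roots. Their mean level was between 0.0472 and 25.8 CPM in WD roots, with a median of 1.99 CPM, and between 10.1 and 276 CPM in irrigated roots, with a median of 34.6 CPM. How near to silence they came differed: the mean WD root level was under 1 CPM for 83 of the 150 genes in PL4x, 18 in PL2x, 63 in ML4x and 110 in ML2x. The mean root response ranged from -6.34 to -2.81 on the log2(CPM + 1) scale, with a median of -3.46, against -0.02 over all genes. The last gene kept, Ciclev10019699m.g, had a mean response of -2.81, and the first one left out, Ciclev10023257m.g, had -2.79.

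Summed, the genes took a median of 0.0156% of the counts in the 15 WD root libraries, with a lowest value of 0.0082% and a highest of 0.281%. In the 12 irrigated root libraries they took a median of 0.803%, between 0.312% and 2.06%. Every WD root library was below every irrigated one. In leaves the same genes took 0.0295% to 0.0631% of the counts in WD libraries and 0.0406% to 0.0648% in irrigated libraries. These ranges overlapped, as they did within ML4x and ML2x. Within Persian lime they did not. In PL4x the leaf share was 0.038% to 0.044% under WD and 0.0445% to 0.0474% under irrigation. In PL2x it was 0.0295% to 0.0357% under WD and 0.0406% to 0.0488% under irrigation. Most of the leaf share came from 1 gene, Ciclev10020762m.g, at a mean of 356 CPM in WD and 385 CPM in irrigated leaves. Leaf shares, and their separation within Persian lime, therefore largely describe that gene.

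**Figure D1:**
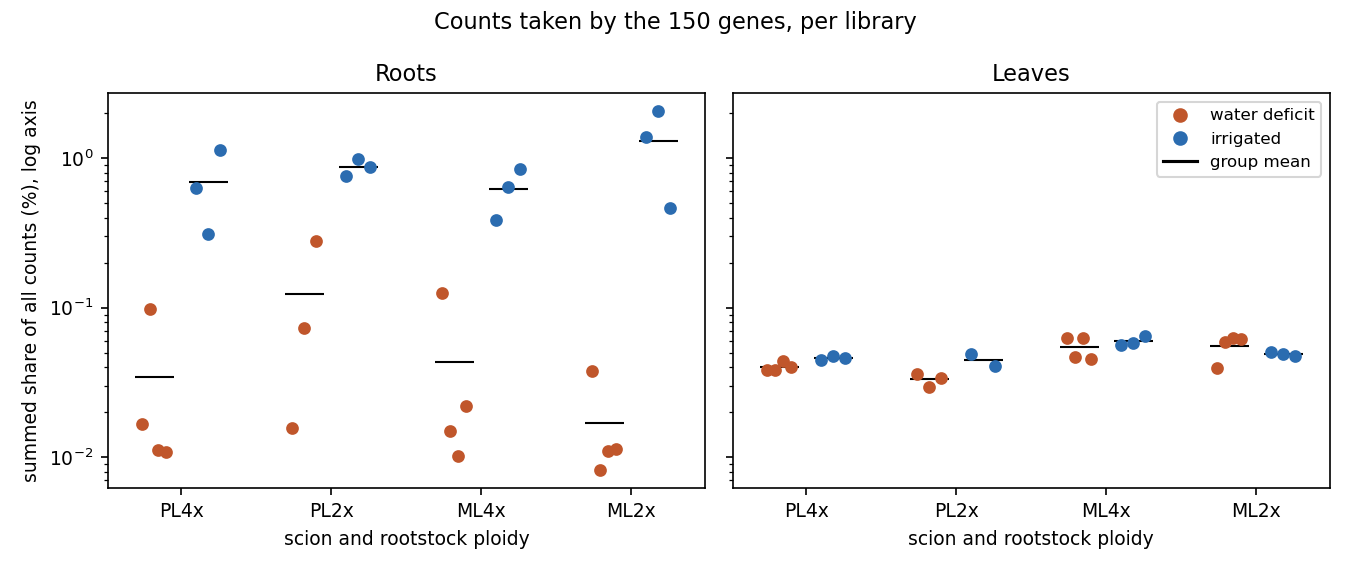
Share of all counts taken by the 150 genes in each library (percent, log axis), for roots and leaves, by combination. Most of the leaf share comes from Ciclev10020762m.g. Points are libraries, orange for water deficit and blue for irrigated, and lines are group means; in roots the WD libraries reach at most 0.281% and the irrigated ones lie at 0.312% or above, while in leaves the treatments lie close together and overlap within ML4x and ML2x.

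Ciclev10029991m.g had the lowest mean root response of the list, at -6.34. Its level in the 15 WD root libraries was 0 CPM at the lowest, 0.0712 CPM at the median and 6.07 CPM at the highest. In the 12 irrigated root libraries it was 10.1, 105 and 464 CPM at the lowest, median and highest. No WD library reached an irrigated one. In leaves the gene had at most 0.307 CPM under water deficit and 0.801 CPM under irrigation.

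Ciclev10030062m.g was second, with a mean root response of -5.57, and was also the gene with the highest irrigated root level. It had a median of 0.387 CPM in WD roots, from 0 to 83.6 CPM, and a median of 193 CPM in irrigated roots, from 71.8 to 834 CPM. Here the treatments overlapped through 1 WD library, since PL2x WD 3 at 83.6 CPM stood above ML2x Ctrl 3 at 71.8 CPM and ML4x Ctrl 1 at 82.7 CPM, and just under PL4x Ctrl 2 at 83.8 CPM. Ciclev10007081m.g, second in irrigated root level, had a median of 1.01 CPM in WD roots and 187 CPM in irrigated roots. Its highest WD value was again PL2x WD 3, at 78.7 CPM, and its lowest irrigated values were PL4x Ctrl 2 at 48.9 CPM and ML2x Ctrl 3 at 68.2 CPM.

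By group means, the fall was deepest in ML2x and shallowest in PL2x. The median response of the 150 genes was -3.63 in PL4x, -2.58 in PL2x, -3.31 in ML4x and -4.81 in ML2x. For 132 genes the lowest of the 4 responses was in ML2x, and for 116 the weakest was in PL2x. The shares of all genes with these extremes were not counted. Over all genes with a root count, a response of at most -1 was also most frequent in ML2x, at 17.8%. It was seen in 11.0% of them in PL4x, 8.79% in PL2x and 7.41% in ML4x. All 150 had a response of at most -1 in each of the 4 combinations, and 122 had one of at most -2 in each, out of 172 such genes among all 24533. In ML2x every WD root library was below every irrigated one for all 150 genes, where 25.1% of all genes with a root count showed this. The same held for 134 genes in PL4x (13.3% of all genes), 144 in PL2x (20.0%) and 142 in ML4x (11.8%). It held in all 4 combinations at once for 128 (3.92%), and for 41 all 15 WD libraries were below all 12 irrigated ones (1.39%). The rule used these contrasts, so the counts describe the list and test nothing.

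The genes differed in how evenly they fell. On the log2(CPM + 1) scale Ciclev10017079m.g had nearly the same response in each combination, between -3.69 and -3.06. It was at 0 CPM in all 4 ML2x WD libraries and at 19.4, 4.42 and 8.91 CPM in the ML2x irrigated ones, and in PL2x it was at 0, 0.484 and 1.00 CPM under water deficit and 9.53, 13.0 and 11.9 CPM under irrigation. Ciclev10015366m.g was about as even on this scale, between -4.99 and -4.35. With WD levels this near 0 the added 1 CPM bounds the response, so the evenness belongs to the scale. The edgeR fits of each combination alone, described below, add no 1 CPM. They gave log2 differences of -5.34, -4.43, -5.12 and -10.19 for Ciclev10017079m.g in PL4x, PL2x, ML4x and ML2x. For Ciclev10015366m.g they gave -6.85, -4.92, -6.03 and -7.76 in the same order. At the other end stood Ciclev10017864m.g, with -8.43 in ML2x and -2.74 in PL2x. Its ML2x WD libraries were at 0.943, 0, 0.0712 and 0 CPM and its ML2x irrigated libraries at 519, 713 and 64.5 CPM. In PL2x its WD libraries were at 0.0999, 10.4 and 97.5 CPM and its irrigated libraries at 187, 279 and 274 CPM, so that PL2x WD 3 held most of what was left. Ciclev10023890m.g had the next largest spread of response, from -8.23 in ML2x to -3.10 in PL2x.

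**Figure D2:**
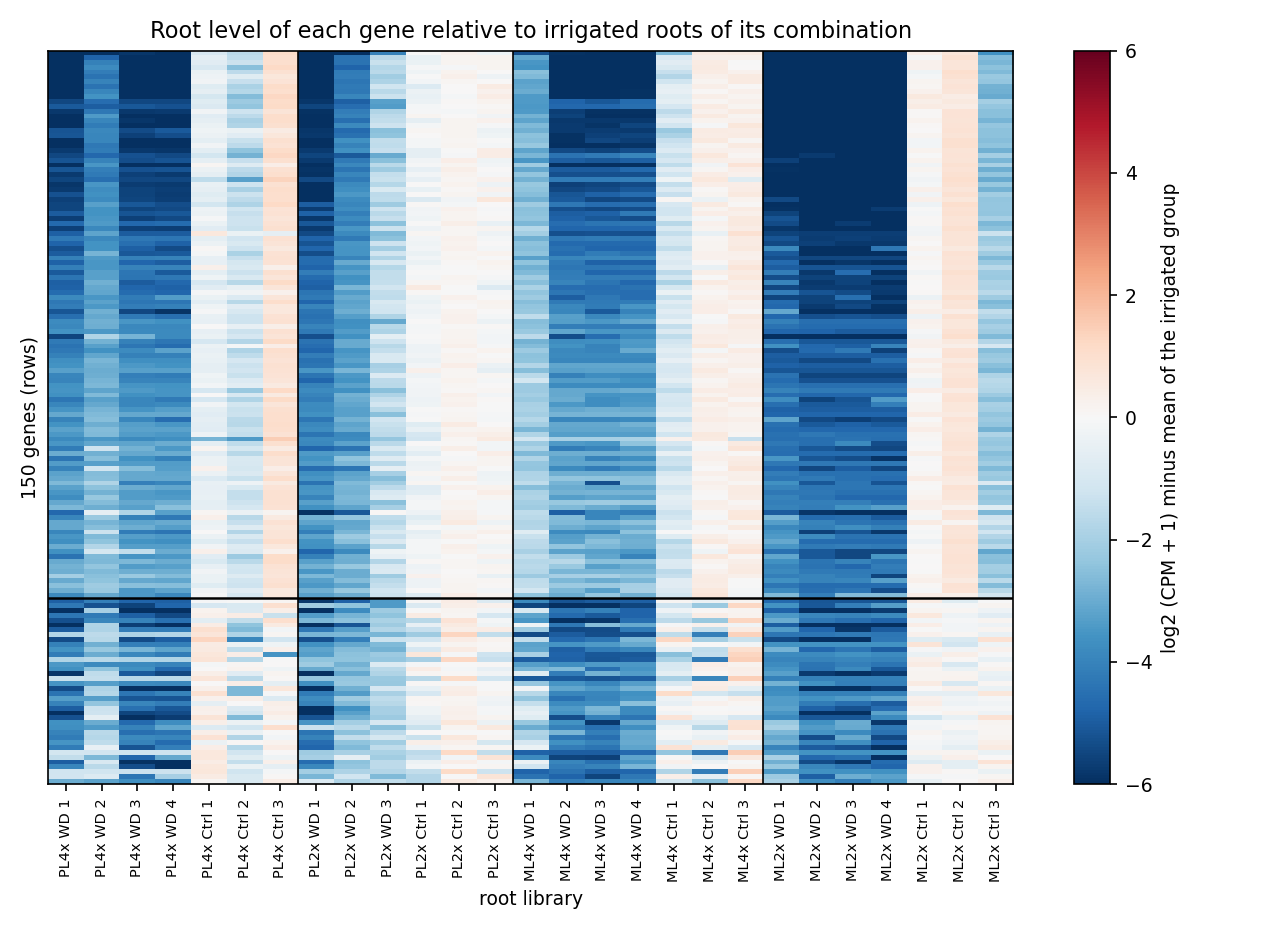
Level of each of the 150 genes (rows) in each root library (columns) as log2(CPM + 1) minus log2 of the irrigated group mean + 1 of the same combination; blue is lower and red higher. WD libraries stand left of the irrigated ones within each combination. The horizontal line parts 112 genes (above) from the other 38 (below). The 112 were at least 2-fold lower in ML2x Ctrl 3 than the mean log2(CPM + 1) of the other irrigated ML2x libraries.

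To read the fall in libraries that had no part in choosing the genes, the rule was applied to 3 combinations at a time and its 150 genes were read in the fourth. These lists shared 136, 137, 139 and 130 genes with the 150 when PL4x, PL2x, ML4x and ML2x were left out. In the combination left out, the median root response was -3.63 in PL4x, -2.57 in PL2x, -3.11 in ML4x and -4.66 in ML2x, against medians between -0.06 and 0 over all genes with a root count. A response of at most -1 was seen in 149, 150, 148 and 148 of the 150 genes in the same order, where 11.0%, 8.79%, 7.41% and 17.8% of all genes had one.

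**Figure D3:**
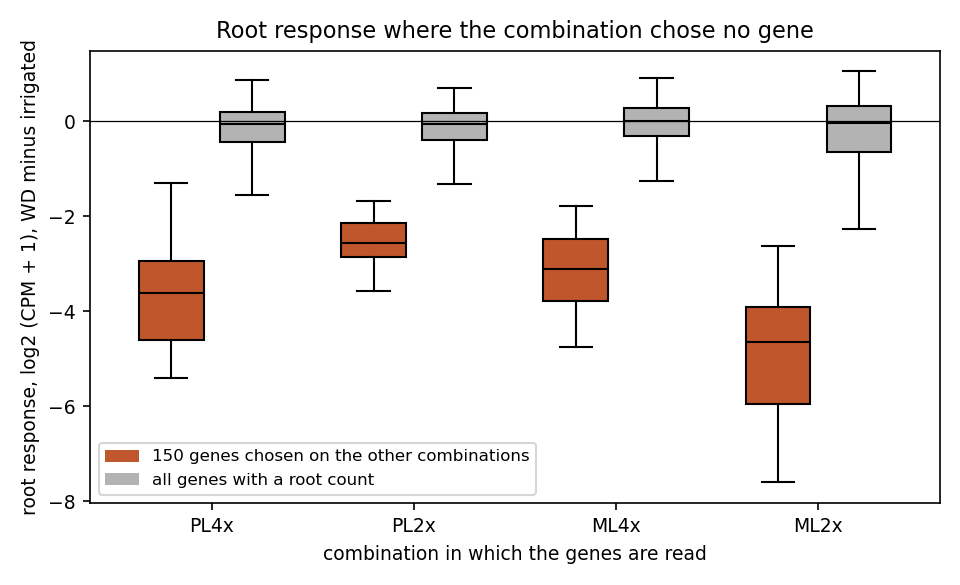
Root response, as the log2 ratio of mean CPM + 1 under WD to mean CPM + 1 under irrigation, in the combination that took no part in choosing the 150 genes (orange) and for all genes with a root count (grey). Boxes span the quartiles with the median as a line and whiskers reach the 5th and 95th percentiles; the orange medians lie between -4.66 and -2.57 and the grey ones between -0.06 and 0.

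How many of these genes passed a test differed widely between combinations. Each combination was fitted alone with edgeR's quasi-likelihood test, and a gene was called at a Benjamini-Hochberg adjusted p under 0.05 over all genes tested. In PL4x 91 of the 139 that passed the filter on low counts were called lower, where 3.23% of all genes tested were. In PL2x 6 of 146 were called lower (0.967% of all genes), in ML4x 71 of 150 (4.93%) and in ML2x 148 of 150 (19.2%). Since a filter on low counts drops some genes, the counts were also taken without it, and gave 87 of 150 in PL4x (2.88% of all genes), 5 in PL2x (0.843%), 55 in ML4x (4.41%) and 148 in ML2x (16.5%). None was called higher in any combination. At an unadjusted p under 0.05 in either direction the counts were 122 in PL4x, 98 in PL2x, 140 in ML4x and 149 in ML2x. Those were 87.8%, 67.1%, 93.3% and 99.3% of the list genes tested, against 28.0%, 25.4%, 29.8% and 43.1% of all genes. DESeq2 called 110, 62, 96 and 146 lower in the same order.

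The lower of these counts shifted widely when 1 library was left out. Such fits also hold fewer libraries, and the part of that in the counts was not tested. The share of all genes called in them, and by DESeq2, is not given here. In PL2x the count was 118 without WD 3, and 0 without WD 2 or without any 1 of the irrigated libraries. In ML4x it was 149 without WD 1, and 32, 18 and 4 without Ctrl 1, 2 and 3 and 17, 35 and 15 without WD 2, 3 and 4. In PL4x it was 133 without WD 2, and 0, 18 and 8 without Ctrl 1, 2 and 3 and 1, 0 and 13 without WD 1, 3 and 4. In ML2x it stayed between 146 and 148.

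Single genes followed these counts. Ciclev10029991m.g was called lower in PL4x, in ML4x and in ML2x, each read outside the libraries that chose it (edgeR adjusted p = 0.019, 0.012 and 0.002), and passed under 7 of 12, 10 of 12 and 12 of 12 alternatives. It was not called in PL2x (edgeR adjusted p = 0.064), where it had 0.2, 0.0881 and 6.07 CPM under water deficit and 115, 139 and 99.9 CPM under irrigation. Ciclev10017864m.g was called in ML2x (edgeR adjusted p = 0.002) and not in PL4x, PL2x or ML4x (edgeR adjusted p = 0.057, 0.28 and 0.052). Of the genes named here, Ciclev10020762m.g alone was called in all 4 (edgeR adjusted p = 0.018, 0.044, 0.011 and 0.0016 in PL4x, PL2x, ML4x and ML2x). Its PL2x call passed under 5 of 11 alternatives, whose adjusted p ran up to 0.16.

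Most of the list was hardly measured in leaves. The median level in irrigated leaves was 0.0294 CPM. Of the 150 genes, 135 had a mean under 1 CPM in irrigated leaves (90.0%), 106 were under 0.1 CPM, 117 stayed under 1 CPM in every one of the 26 leaf libraries, and 5 had no leaf count at all. Among the 12258 genes with an irrigated root level in the same range, 8.86% were under 1 CPM in leaves. Among the 827 of these with a mean root response of at most -1.5, 53.4% were, and among the 690 genes that met the limits but ranked below 150, 75.1% were. With so few leaf counts a fall in leaves was not detectable for most of the list, and the log2(CPM + 1) scale holds their leaf response near 0. In the 135 genes of low leaf level, 16 reached 1 CPM in at least 1 WD leaf library.

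Irrigated roots exceeded irrigated leaves in all libraries for 140 of the 150 genes. The share of all genes showing this was not counted. The log2 ratio of irrigated root to irrigated leaf level (CPM + 1) had a median of 4.77 in the list. It was 0.839 over the 12258 genes of the same root range. A fall of this depth on a scale with 1 CPM added needs a root level well above 0, so the rule favoured such genes and this is a description of the list. The single exception in the means was Ciclev10020762m.g, which was higher in irrigated leaves than in irrigated roots.

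**Figure D4:**
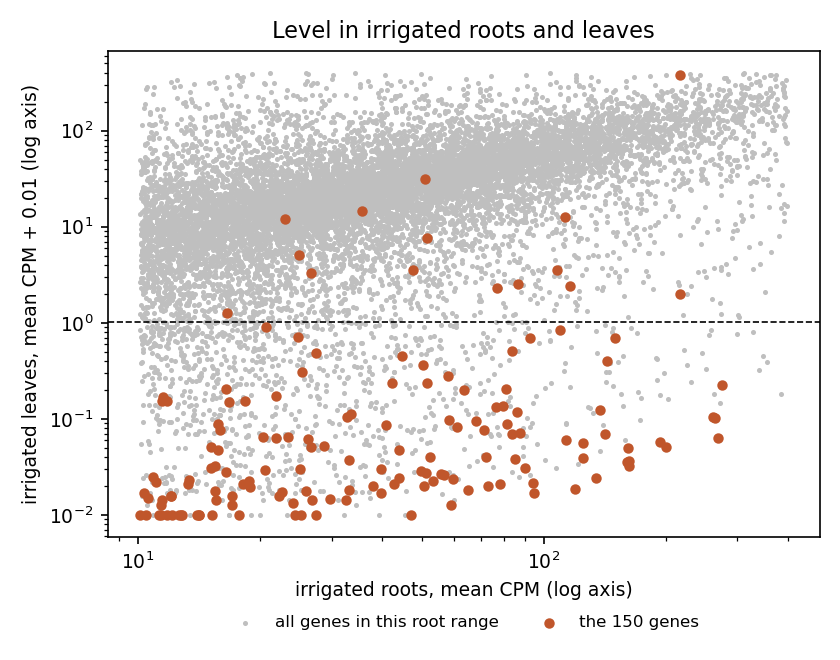
Mean level in irrigated leaves (CPM + 0.01, log axis) against mean level in irrigated roots (CPM, log axis) for the 150 genes (orange) and all genes in the same root range (grey). The dashed line marks 1 CPM in leaves; 135 of the 150 genes lie under it, and Ciclev10020762m.g stands at the top right.

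The 15 genes with at least 1 CPM in irrigated leaves are those in which a change limited to roots can be measured. Their mean root response had a median of -3.22 and their mean leaf response ran from -0.46 to 0.39, with a median of -0.17. The rule bounds that leaf mean, and single combinations went further. Leaf responses ran from -1.02 to 0.66 in PL4x, -0.87 to 1.13 in PL2x, -0.73 to 0.51 in ML4x and -0.77 to 1.26 in ML2x. Opposite responses can cancel in the mean: Ciclev10006037m.g was at 1.13 in PL2x leaves and -0.77 in ML2x leaves. Ciclev10020762m.g had the highest leaf level. In leaves it was at 224 CPM at the lowest, 338 at the median and 543 at the highest over 15 WD libraries, and at 295, 366 and 506 CPM over 11 irrigated libraries. In roots it was at 4.13, 13.7 and 30.8 CPM over 15 WD libraries and at 80.9, 214 and 373 CPM over 12 irrigated ones. Root libraries did not overlap between treatments, while the leaf libraries did over all combinations and within ML4x and ML2x. Within Persian lime the leaf libraries did not overlap, and WD was lower. In PL4x leaves were at 261 to 338 CPM under WD and 351 to 369 CPM under irrigation. In PL2x leaves were at 224 to 242 CPM under WD and 295 to 392 CPM under irrigation. Ciclev10005425m.g, second in leaf level, had a median of 28.9 CPM in WD leaves, between 11.6 and 45.8 CPM. In irrigated leaves its median was 38.0 CPM, between 12.5 and 44.0 CPM. In PL4x leaves it was higher under WD, at 28.9 to 37.7 CPM against 12.5 to 24.2 CPM. The treatments overlapped in leaves of PL2x, ML4x and ML2x. In roots its median was 2.11 CPM under water deficit, between 0.811 and 17.9 CPM, and 39.2 CPM under irrigation, between 9.59 and 160.0 CPM.

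Whether a response differed between the tissues was tested as the root response minus the leaf response, again in the combination that took no part in choosing the genes. For Ciclev10020762m.g the difference was -4.08 ± 0.56 in PL4x, -3.97 ± 0.62 in ML4x and -3.95 ± 0.46 in ML2x on the log2 scale (SE; edgeR adjusted p = 0.0069, 0.015 and 0.0004). It passed under all 20 alternatives in each of these combinations. In PL2x it was -1.95 ± 0.59 and did not pass (edgeR adjusted p = 0.14). Ciclev10005425m.g passed in PL4x at -4.45 ± 0.77, in ML4x at -2.88 ± 0.66 and in ML2x at -4.57 ± 0.88 (SE; edgeR adjusted p = 0.013, 0.04 and 0.0048), and its difference in PL2x was -2.04 ± 1.16 (edgeR adjusted p = 0.38). The ML4x call passed under 7 of 20 alternatives. Ciclev10006037m.g passed in PL4x at -4.26 ± 1.00 and in ML2x at -4.13 ± 0.965 (SE, edgeR adjusted p = 0.041 and 0.012). These calls passed under 7 of 20 and 18 of 20 alternatives. It did not pass in PL2x or ML4x (edgeR adjusted p = 0.12 and 0.077). Ciclev10027300m.g passed in none of PL4x, PL2x, ML4x and ML2x (edgeR adjusted p = 0.14, 0.44, 0.49 and 0.23).

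Over the lists, a lower response in roots than in leaves was called for 17 of 139 genes in PL4x (1.62% of all genes tested), 0 of 150 in PL2x (0.0%), 6 of 150 in ML4x (1.02%) and 56 of 150 in ML2x (8.77%). None was called higher. In PL2x 10 genes had an unadjusted p under 0.05 (6.67%, against 18.1% of all genes) and DESeq2 called 5. Among genes with at least 1 CPM in irrigated leaves, 6 of 14 were called in PL4x, 0 of 13 in PL2x, 3 of 13 in ML4x and 14 of 18 in ML2x. Among those under 1 CPM, 11 of 125, 0 of 137, 3 of 137 and 42 of 132 were called in the same order. The shares of all genes called at either leaf level were not counted, and the shares above cover all leaf levels. The median SE of the log2 difference was 0.907 for leaf-expressed genes and 3.09 for the others in ML2x, so the test was less precise where leaves held few counts. The PL4x count was 79 without root library WD 2, 28 without leaf library WD 2, and 6 to 12 without any 1 of the other 12 libraries. The ML4x count was 76 without root library WD 1, and 1 to 7 without any 1 of the other 13. The ML2x count was 42 to 77 without any 1 library.

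WD root libraries were not equally far from the irrigated ones. Per library, the median log2 change of the 150 genes from the irrigated mean of their combination was -1.62 in PL2x WD 3, -2.32 in ML4x WD 1, -2.95 in PL4x WD 2 and -3.24 in PL2x WD 2. In the other 11 WD libraries it was between -5.20 and -3.82. PL2x WD 3 was the highest WD library for 126 of the 150 genes, and for 10.3% of the 12258 genes of the same irrigated root range. A separate set of 300 genes with a mean root response of at least 1.5, chosen on the same libraries, was least raised in the same 4, with medians of 1.09, 1.09, 1.28 and 1.44. In the other 11 its medians were between 1.76 and 2.53. The WD libraries in which the 150 genes fell least were thus also those in which this set rose least. How dry the soil or tissue of each tree was is not analysed here, and its part in the result was not tested.

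**Figure D5:**
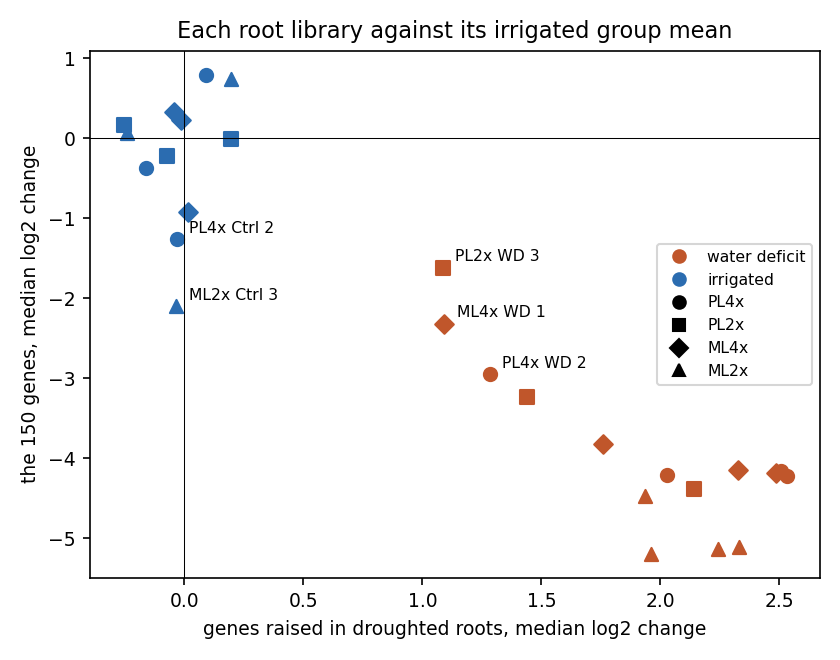
Median log2 change from the irrigated mean of the combination, for the 150 genes (vertical axis) and for 300 genes raised in WD roots (horizontal axis), in each of the 27 root libraries; orange is WD, blue is irrigated, and shapes are combinations. PL2x WD 3, ML4x WD 1, PL4x WD 2 and PL2x WD 2 have the smallest rise and the smallest fall. That order does not hold throughout: ML2x WD 4 has the deepest fall, -5.20, at a rise of 1.96. PL4x WD 4 has the largest rise, 2.53, at a fall of -4.22. The irrigated library ML2x Ctrl 3 stands at -2.10 for the 150 genes and -0.03 for the raised genes.

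The genes also varied together among irrigated trees. In ML2x Ctrl 3 the median of the 150 genes was -2.10 relative to its group mean, against 0.06 in ML2x Ctrl 1 and 0.74 in ML2x Ctrl 2. The genes raised in WD roots were at -0.03 in ML2x Ctrl 3, the 228 genes that fell in both tissues were at 0.25, and the 690 other genes that met the limits were at 0.02. Each gene in ML2x Ctrl 3 was compared with its mean log2(CPM + 1) over ML2x Ctrl 1 and 2. Of the 150 genes, 112 were at least 2-fold lower than that mean, against 3.65% of the 12258 genes of the same root range. Only 150 of those 12258 were at least 4-fold lower there, and 101 of them were members of the list (67.3% of either set). Ciclev10029991m.g was at 21.2 CPM in ML2x Ctrl 3 and at 348 and 464 CPM in ML2x Ctrl 1 and 2. Ciclev10015366m.g, one of the other 38, was at 32.7 CPM there and at 48.4 and 19.7 CPM in the same libraries.

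These 112 genes took 0.203% of the counts in ML2x Ctrl 3, 1.11% in ML2x Ctrl 1 and 1.82% in ML2x Ctrl 2. The other 38 took 0.263%, 0.269% and 0.233% in the same order and so did not set this library apart. The 112 were split off after their values in ML2x were seen, and their behaviour there is no finding. In the 9 irrigated root libraries of the other combinations, which did not enter that split, their deviations from group means correlated pairwise with a median r of 0.898. The other 38 members had a median of 0.352 and all genes of the root range 0.0714. In PL4x the median of the 112 genes was -0.46, -1.29 and 0.89 in Ctrl 1, 2 and 3, and in ML4x it was -0.98, 0.27 and 0.34 in the same order. In PL2x the irrigated trees were close together, between -0.19 and 0.16. Such correlations describe libraries that share depth and composition, and they carry no test.

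The highest irrigated values of the list came from ML2x. Its library Ctrl 2 was the highest irrigated root library for 106 of the 150 genes, and for 5.38% of the genes of the same range. In WD roots the median level of the 150 genes was 0.736 CPM in PL4x, 4.75 CPM in PL2x, 1.32 CPM in ML4x and 0.289 CPM in ML2x. In irrigated roots the medians were 28.2 CPM in PL4x, 34.0 CPM in PL2x, 25.1 CPM in ML4x and 47.5 CPM in ML2x. ML2x therefore had both the highest irrigated and the lowest WD level.

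The question of ploidy was read in contrasts between combinations, which the mean response that chose the genes does not fix. All 150 genes passed the filter in the fit of the 8 root groups. In irrigated roots the tetraploid rootstock had the lower level for 129 of the 150 genes, with a median difference of -0.82 on the log2(CPM + 1) scale, against -0.01 over all genes. The 112 genes that were low in ML2x Ctrl 3 had a median of -0.91 and the other 38 one of 0.08. That split used irrigated ML2x values, which also enter this contrast. None of the 150 was called by edgeR (3.05% of all genes tested were), and 6 had an unadjusted p under 0.05 (4.0%, against 15.8% of all genes). DESeq2 called 2, of which 1 was higher and 1 lower. The median of the fitted log2 differences was -0.87, and lay between -1.23 without PL4x Ctrl 3 and -0.55 without ML2x Ctrl 2. By group means the difference had a median of -0.34 under Persian lime, where 131 genes were lower, and -1.29 under Mexican lime, where 128 were. In WD roots the medians for 4x minus 2x ran in opposite directions under the 2 scions, at -1.44 under Persian lime and 0.55 under Mexican lime. Averaged over scions, 0 genes were called in WD roots (0.357% of all genes) and 2 were called lower by DESeq2. At an unadjusted p under 0.05 there were 8 (5.33%, against 12.1% of all genes). The fitted median of that average was -0.42, and its sign rested on single libraries: it was 0.50 without ML2x WD 1 and 0.51 without PL2x WD 3, against -1.65 without ML4x WD 1 and -1.44 without PL4x WD 2.

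By group means, the fall was deeper on the tetraploid rootstock under Persian lime for 137 of 150 genes and shallower on it under Mexican lime for 137. The median difference of response, 4x minus 2x, was -1.09 under Persian lime and 1.85 under Mexican lime. edgeR called 0 of the 150 genes in either contrast or in their mean, and 0.0% of all genes. At an unadjusted p under 0.05 there were 14 of 150 under Persian lime (9.33%, against 3.19% of all genes), 26 under Mexican lime (17.3%, against 14.3%) and 5 in the mean (3.33%, against 9.41%). DESeq2 called 1, 0 and 0. Whether the difference under Persian lime differed from that under Mexican lime was not tested. Single WD libraries set the size of these differences. Under Persian lime the fitted median was -2.19, and it was -0.42 without PL2x WD 3 and -3.93 without PL4x WD 2. Under Mexican lime it was 2.84, and it was 0.33 without ML4x WD 1 and 4.53 without ML2x WD 1. In the mean of both scions it was 0.40, and its sign turned, to -0.93 without ML4x WD 1 and -0.66 without PL4x WD 2.

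Between scions, the fall by group means was shallower under Persian lime for 148 of 150 genes, with a median difference of response of 0.96, against -0.02 over all genes. edgeR called 0 of these (0.0% of all genes), 16 had an unadjusted p under 0.05 (10.7%, against 3.23% of all genes) and DESeq2 called 0. The fitted median was 1.61, and it was 0.77 without PL2x WD 3, 0.71 without PL4x WD 2, 2.54 without ML2x WD 1 and 2.75 without ML4x WD 1. In WD roots the level was higher under Persian lime for 144 genes, with a median difference of 0.72. Here edgeR also called 0 (0.0% of all genes), 23 had an unadjusted p under 0.05 (15.3%, against 5.96%) and DESeq2 called 1. The fitted median was 1.30, and it was 0.38 without PL2x WD 3, 0.32 without PL4x WD 2, 2.23 without ML2x WD 1 and 2.50 without ML4x WD 1. In irrigated roots the median difference was -0.23, with 0 called by edgeR (0.0% of all genes) and by DESeq2. At an unadjusted p under 0.05 there were 5 (3.33%, against 3.86% of all genes). The fitted median there was -0.34, between -0.73 without PL4x Ctrl 3 and -0.025 without ML2x Ctrl 2.

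In irrigated leaves, where the scions differ in genotype, 36 of the 150 genes passed the filter on low counts and 4 were called between Persian and Mexican lime, or 11.1%, against 12.4% of all genes tested. Ciclev10027300m.g was higher in Persian lime, at 6.74 ± 2.24 CPM (SD, n = 5) against 0.181 ± 0.191 CPM in Mexican lime (n = 6), with a log2 difference of 5.50 ± 0.57 (SE, edgeR adjusted p = 7.2e-07). Each Persian lime library, at 4.81 to 10.4 CPM, was above each Mexican lime library, at 0.0501 to 0.561 CPM. In WD leaves it was at 1.58 to 6.93 CPM in Persian lime and at 0 to 0.314 CPM in Mexican lime. In roots, which share the rootstock genotype, its level in irrigated trees was 9.87 CPM at the lowest and 141 CPM at the highest.

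The other calls were lower in Persian lime. Ciclev10006037m.g was at 5.31 ± 3.76 CPM in Persian and 19.1 ± 1.6 CPM in Mexican lime (SD), a log2 difference of -1.88 ± 0.46 (SE, edgeR adjusted p = 0.012). Ciclev10005425m.g was at 21.7 ± 5.58 CPM in Persian and 41.4 ± 2.13 CPM in Mexican lime (SD), a log2 difference of -0.82 ± 0.26 (SE, edgeR adjusted p = 0.038). Ciclev10019699m.g, at 0.0644 CPM in Persian and 0.332 CPM in Mexican lime, was close to the threshold (edgeR adjusted p = 0.049). Reads of a scion that differ from the reference can be lost in mapping, and the part of this in the leaf differences was not tested. Without 1 library at a time the count was between 1 and 5, with 1 left without PL2x Ctrl 1 or without PL2x Ctrl 2.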

How the data were processed

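Leaf and root mRNA of grafted lime trees was sequenced with a kit that keeps strand per the labels' protocols. The authors deposited whole-number counts of reads per gene, 1 table per tissue, as raw counts with no normalization. Trimmomatic and HTSeq were used per the submitters' processing notes; the aligner, the genome build and the strand setting were not given in the sources used here. All columns matched a sample title, and 0 were left unmapped. The other PL2x libraries that the design text implies are not analysed here.

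From the counts, CPM were computed on column totals and the 150 genes were chosen as described, with 1 CPM added before logs. The members and the lists were chosen with earlier results of these data known. Tests used edgeR 4.0.16 in R 4.3.3 with limma 3.58.1: filterByExpr, TMM scaling, the robust quasi-likelihood F test and Benjamini-Hochberg adjustment at 0.05 over all genes tested. The lists read in a combination left out were fitted on that combination alone. Contrasts between combinations used all 8 groups of a tissue, with 20452 genes tested in roots, at a common biological coefficient of variation of 0.371, and 19140 in leaves. The fits were tested on simulated data.

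With 2 to 4 libraries a group, precision is limited by spread between trees more than by counting, except at low levels. No pair of libraries in a group agreed within sampling noise, the smallest chi-square per gene being 16.4. Alternatives were DESeq2 1.42.0, its size factors in edgeR, no filter on low counts, a replicate block, a shared fit, leaving out each library, and other settings of the choosing rule. Named genes were fixed by rule as the extremes of each measure, with at most 2 per direction, since the identifiers carry no names.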

Additional observations from a re-analysis of the deposited data

Results flagged for a closer look

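In 62 groups of 4 libraries the highest or lowest value was compared with the spread of the others by Dixon's ratio at the 95% level, and 25 values stood apart. Chance sets apart about 1 group in 20. Many of these values share a library, so they are not separate observations.

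Root library PL4x WD 2 was high. The 150 genes took 0.0978% of its counts, against 0.0108% to 0.0167% in the other PL4x WD libraries, and their median log2 change was -2.95, against -4.22 to -4.16. Among named genes it held 9.85 CPM of Ciclev10007081m.g, 0.752 CPM of Ciclev10015366m.g, 1.32 CPM of Ciclev10017079m.g, 11.0 CPM of Ciclev10017864m.g, 11.2 CPM of Ciclev10023890m.g and 7.66 CPM of Ciclev10030062m.g, where the other libraries of the group reached at most 0.93 CPM of any of them.

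Root library ML4x WD 1 was high in the same way. The 150 genes took 0.126% of its counts, against 0.0101% to 0.0218% in the others. It held 18.0 CPM of Ciclev10007081m.g, 1.51 CPM of Ciclev10015366m.g, 14.3 CPM of Ciclev10017864m.g, 9.55 CPM of Ciclev10023890m.g, 7.91 CPM of Ciclev10027300m.g and 16.5 CPM of Ciclev10030062m.g, and the others reached at most 1.45 CPM of any of these. Ciclev10020762m.g was at 25.8 CPM in it and at 6.48 to 8.55 CPM in the others.

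Root library ML2x WD 1 stood above its group at a low level. The 150 genes took 0.0376% of its counts, against 0.0082% to 0.0113%, with a median log2 change of -4.47, against -5.20 to -5.11. Ciclev10027300m.g was at 7.96 CPM, against 0.57 to 0.894 CPM, and Ciclev10017864m.g was at 0.943 CPM, against at most 0.0712 CPM. Ciclev10015366m.g at 0.354 CPM and Ciclev10023257m.g, the first gene outside the list, at 0.118 CPM were at 0 in the other ML2x WD libraries. In ML2x WD 4 a count of 0 still allows up to 2.68 CPM. Ciclev10019699m.g was low in another library, ML2x WD 2, at 0.284 CPM, against 2.48 to 2.68 CPM.

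In leaves, the 150 genes took 0.0394% of the counts in ML2x WD 1, against 0.0593% to 0.0622% in the other ML2x WD libraries. Ciclev10020762m.g, which made up most of the leaf share, was at 272 CPM there and at 438 to 524 CPM in the others. Ciclev10005425m.g was at 45.8 CPM in leaf library ML2x WD 2, against 22.6 to 23.4 CPM in the others.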

How the results depend on the processing

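Membership of the list depended on the amount added before logs: 98 of the 150 genes were kept with 5 CPM added, and 131 with 0.5 CPM, 146 with TMM scaling, 148 with no upper limit and 138 to 150 without any 1 library. In the combination left out, the count called lower in roots under a fit of all root groups was 22 in PL2x (6 when fitted alone) and 122 in ML4x (71), and DESeq2 called 62 in PL2x. Without any 1 library the ranges were 0 to 133 in PL4x, 0 to 118 in PL2x, 4 to 149 in ML4x and 146 to 148 in ML2x. For the difference between tissues DESeq2 called 53 in PL4x, 5 in PL2x, 31 in ML4x and 109 in ML2x, where edgeR called 17, 0, 6 and 56. A fit of both tissues and all groups gave 27 in PL4x and 1 in PL2x, and leaving out 1 library gave 6 to 79, 0 to 0, 1 to 76 and 42 to 77. For the rootstock contrast DESeq2 called 2 in irrigated and 2 in WD roots, its size factors in edgeR gave 1 in irrigated roots, and leaving out 1 library gave 0 to 1 in both. DESeq2 called 1 for the rootstock difference of response under Persian lime and 1 between scions in WD roots. Between scions in irrigated leaves leaving out 1 library gave 1 to 5. The median over the genes turned sign in 4 cases, each with 1 WD root library left out: the average rootstock difference in WD roots, -0.42 with all libraries, was 0.50 without ML2x WD 1 and 0.51 without PL2x WD 3, and the average rootstock difference of response, 0.40 with all, was -0.93 without ML4x WD 1 and -0.66 without PL4x WD 2. No median of the lists read in a combination left out turned sign. The causes of these shifts were not tested.

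Libraries of WD and irrigated groups share replicate numbers, and the labels do not say what an equal number marks. Their deviations correlated at -0.391 to 0.354 in roots. Correlations from so few libraries cannot exclude a shared block. With the replicate number as a block the root counts were 0, 0, 0 and 148 in PL4x, PL2x, ML4x and ML2x, the tissue counts 8, 0, 1 and 68, and the leaf count between scions 2. Leaves and roots were taken from the same trees, per the design text, but no label ties a number to a tree. A block by treatment and number across tissues, chosen after seeing the data, gave 16, 0, 21 and 66.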
